A study of Gallus gallus with 144 samples.

Results

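Small RNA genes are copied in several ways. Most microRNAs are cut from long capped transcripts of RNA polymerase II by the nuclease DROSHA, and many lie inside introns of protein-coding host genes, whose transcript they share. Most vertebrate small nucleolar RNAs (snoRNAs), which guide chemical changes of ribosomal and spliceosomal RNA, are likewise cut from introns of host genes, often genes of ribosomal proteins. The spliceosomal RNAs U1, U2, U4 and U5 have polymerase II promoters of their own, while U6, 7SK and 5S rRNA are copied by RNA polymerase III.

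The promoter peaks that carry the name of a microRNA or another small RNA gene were taken from a list of transcription start sites of chicken tissues. The list came from CAGE, which reads the capped 5′ ends of RNA, and gave 153662 peaks, of which 24969 carried the authors' promoter label with 1 gene name each. A labelled peak was a member when its gene name began with gga-mir-, gga-let-, SNOR or SCARNA, or was 5S_rRNA, 7SK, U1, U2, U4, U5 or U6. This rule, which used names and no measured value, gave 121 peaks of 65 gene names.

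The study took chickens of a fast-growing and a slow-growing type, 12 birds of each, and each bird gave brain, breast, heart, kidney, leg and liver, which makes 12 groups of 12 libraries. The strains and ages of the birds are not given in the labels. The list pools all libraries and holds no value per library, so depth and peak height are unknown, and neither growth types nor tissues were compared. Each value below is a count, a width in base pairs (bp) or a distance on the GRCg6a build, with no replicates and no test between conditions. Intervals are 95% Wilson intervals and cover counting over peaks or loci only.

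Among the 121 peaks, 91 were of microRNAs (75.2%), 17 of snoRNAs and 13 of U1, U2, U4, 7SK and 5S rRNA. No peak carried a let-7, scaRNA, U5 or U6 name. Peaks of 1 name on 1 strand were joined into a locus where neighbours lay within 5000 bp, which gave 69 loci: 50 of microRNAs, 10 of snoRNAs, 5 of U1 and 1 each of U2, U4, 7SK and 5S rRNA. On the plus strand lay 40 loci and on the minus strand 29, and the split of the other promoter loci is not given here. Chromosomes 1 to 5 held 36.4% of the member peaks, against 44.4% of the other promoter peaks. Chromosome Z held 7.44% of the member peaks, against 4.99%. Small RNA names that the rule leaves out were also rare in the list, with 4 peaks for Metazoa_SRP, 3 each for U3 and Y_RNA, 2 for U8 and 1 each for U12, RNase_MRP and RNaseP_nuc. The widest of these, at RNase_MRP, measured 246 bp.

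Member loci were mostly single peaks. Of the 69 loci, 44 had 1 peak (63.8%, interval 52.0 to 74.1), 10 had 2 and 15 had 3 or more. Of 10723 other promoter loci, 3971 had 1 peak (37.0%, interval 36.1 to 38.0). The mean was 1.75 peaks in member loci and 2.32 in the others. The most peaks at a member locus was 6, at gga-mir-7455 and gga-mir-1772. These intervals do not overlap, but peaks are not independent replicates, and whether the difference is particular to small RNA genes was not tested.

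**Figure D1:**
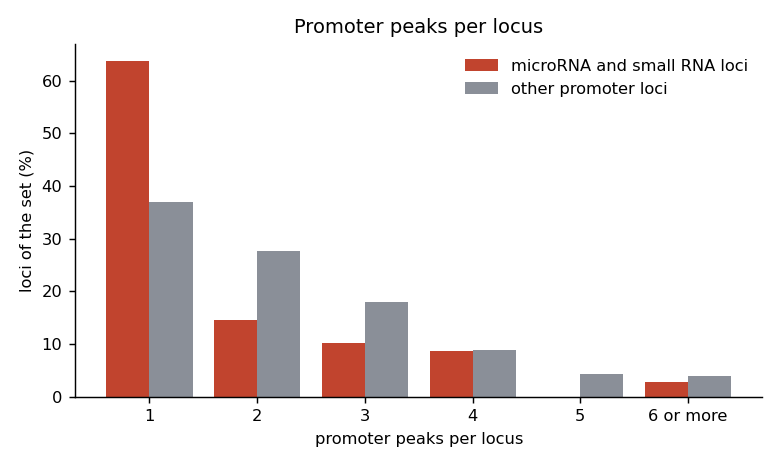
Share of loci (%) by the number of promoter peaks per locus, for 69 microRNA and small RNA loci (left bars) and 10723 other promoter loci (right bars). Loci with 1 peak made up 63.8% of the small RNA loci and 37.0% of the others.

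Member peaks were about as wide as other promoter peaks, with more of them at the narrowest width. The median width was 8 bp in member peaks and 9 bp in the other 24848 promoter peaks. A width of 1 bp was found for 19 of 121 member peaks (15.7%, interval 10.3 to 23.2) and for 1396 other peaks (5.62%, interval 5.34 to 5.91). By class the counts were 11 of 91 microRNA peaks (12.1%, interval 6.89 to 20.4), 3 of 17 snoRNA peaks (17.6%, interval 6.19 to 41.0) and 5 of 13 U1, U2, U4, 7SK and 5S rRNA peaks (38.5%, interval 17.7 to 64.5). Over 100 bp were 2 member peaks (1.65%) and 288 others (1.16%). These were the peak of gga-mir-3526, at 116 bp, and that of SNORD24, at 107 bp. The next widest were gga-mir-1580 at 47 bp, gga-mir-1698-2 at 40 bp, gga-mir-6620 and a peak of gga-mir-6669 at 32 bp each, and gga-mir-7442, gga-mir-7455 and another peak of gga-mir-6669 at 27 bp each. A peak of gga-mir-338 and one of SNORD36 measured 25 bp.

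**Figure D2:**
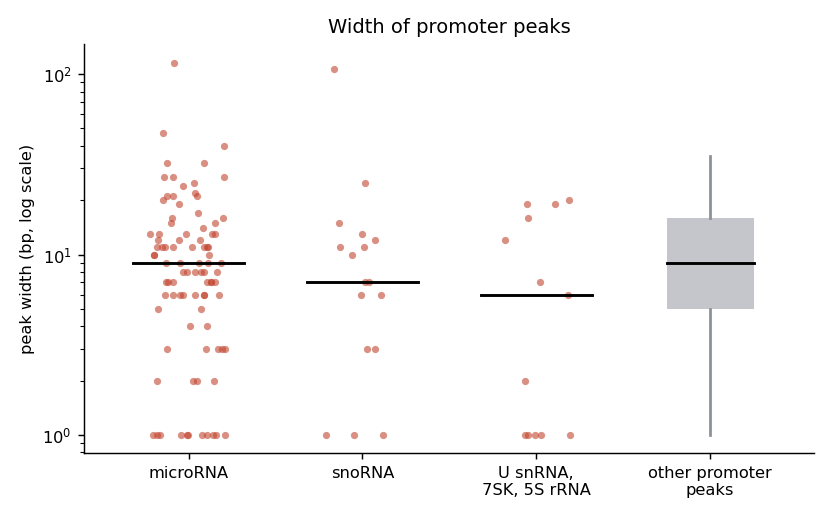
Width of each member peak (bp, log axis) by class, with the median as a black line, beside the other promoter peaks, whose box spans the 25th to 75th percentile (5 to 16 bp) and whose whiskers reach the 5th and 95th (1 to 35 bp). Only 2 member peaks exceeded 100 bp, and 5 of the 13 U1, U2, U4, 7SK and 5S rRNA peaks were 1 bp wide.

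Few of the microRNA genes known in chicken had a labelled peak. Of 799 microRNA genes in the RefSeq table of the GRCg7b build, 46 were labelled (5.76%, interval 4.34 to 7.59), whereas 57.0% of 14357 protein-coding genes with a symbol were. The rule behind the labels is not known, so a missing label does not show that a microRNA is not transcribed. Lists of known families were read against this background of 5.76%, at which a list of their size holds few labels or none, so a count of 0 is not a result about a list. None of 10 muscle and heart microRNA genes had a label (the miR-1, miR-133, miR-206, miR-208 and miR-499 families), nor any of 5 liver genes (miR-122, miR-192 and miR-194). The same held for 20 kidney and epithelial genes, for 17 genes of let-7 and its partners, for 18 of the miR-17-92 and related clusters, and for 24 blood and vessel genes. Among 25 brain microRNA genes 2 were labelled, MIR9-3 and MIR338. The counts depend on which families a list holds, since gga-mir-143, gga-mir-210a, gga-mir-218-1, gga-mir-365-2 and gga-mir-455 were labelled and are in none of the lists.

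MicroRNAs are numbered in the order in which they were registered, so low numbers belong to long-known families that are mostly shared among vertebrates. Of 209 RefSeq microRNA genes numbered below 1000, let-7 included, 7 were labelled (3.35%, interval 1.63 to 6.75). Of 590 numbered 1000 or higher, 39 were labelled (6.61%, interval 4.87 to 8.91). The intervals overlap. The limit of 1000 was chosen after the names were seen. A further 4 microRNA names of the list, gga-mir-12216, gga-mir-12244, gga-mir-12283 and gga-mir-12291, did not match the RefSeq table.

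The 7 long-known microRNAs were gga-mir-9-3, gga-mir-143, gga-mir-210a, gga-mir-218-1, gga-mir-338, gga-mir-365-2 and gga-mir-455. gga-mir-9-3, a copy of the neural microRNA miR-9, had 3 minus-strand peaks of 5, 15 and 9 bp on chromosome 10, between 13375661 and 13375722. Its nearest labelled promoters were that of POLG on the other strand at 8481 bp and that of an Ensembl-named gene on its own strand at 8214 bp. Over the other promoter peaks the median distances were longer, 31062.5 bp on the opposite strand and 41444 bp on the same strand. gga-mir-338, which in mammals is known from myelinating glia and lies in the kinase gene AATK, had 4 plus-strand peaks of 25, 9, 9 and 7 bp on chromosome 18 (9290156 to 9290233). AATK also held the hairpin in chicken, and had 4 promoter peaks on the same strand. The first gga-mir-338 peak lay 11280 bp past the first AATK peak and 2047 bp from the nearest one. gga-mir-9-3 and gga-mir-338 were the only ones of the 7 with more than 1 peak.

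The remaining 5 had a single peak of 19 bp or less, and 4 of them lay over 10 kb from any labelled promoter. gga-mir-218-1, which lies in the axon guidance gene SLIT2, had a 19 bp peak on chromosome 4 (75041372 to 75041390), 184547 bp past the SLIT2 promoter on the same strand. No unlabelled peak lay within 5000 bp of it on either strand. gga-mir-365-2 lies in RAB11FIP4, a gene of endosome traffic, beside MIR193A. Its 11 bp peak stood 65575 bp past the first RAB11FIP4 peak on chromosome 18. gga-mir-143, a smooth muscle microRNA whose RefSeq neighbour is MIR145, had an 11 bp peak on chromosome 13 (9213117 to 9213127), 18754 bp from the nearest same-strand promoter, that of PCYOX1L. gga-mir-455, in the cartilage collagen gene COL27A1, had a 4 bp peak on chromosome 17, 87108 bp from the same-strand promoter of ORM1. gga-mir-210a, which rises under low oxygen in mammals, had a peak of 2 bp on chromosome 5 (16094028 to 16094029), 6846 bp from an opposite-strand promoter.

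Most labelled microRNAs lay inside another gene, as did most microRNAs without a label. Of the 46 matched microRNAs, 37 overlapped a protein-coding gene in the RefSeq table (80.4%, interval 66.8 to 89.3), against 560 of 753 others (74.4%, interval 71.1 to 77.4). Under its RefSeq names, the coding host had a promoter label of its own in 22 of these 37 cases (59.5%, interval 43.5 to 73.7). The same held in 308 of the 560 others (55.0%, interval 50.9 to 59.1). The 57.0% of protein-coding genes with a symbol lies within both intervals. The sets are not alike, since some hosts, such as that of gga-mir-9-3, have no gene name and counted as unlabelled. So did the host of gga-mir-1579, which is labelled under a newer name. The 22 hosts faced the same way as the labelled peak in 19 cases and the other way in 3. No such split is given for the 308 others, so it is not a result about labelled microRNAs. Overlap was read from GRCg7b, and no coordinate of that build is given.

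The 19 same-strand hosts labelled under their RefSeq names fell into groups by the position of the microRNA peak relative to the host promoter. In 3 cases it lay before the first host peak. gga-mir-7455 had 6 minus-strand peaks of 11 to 27 bp on chromosome 2 (90085624 to 90085984), directly before both peaks of CARMIL1, a regulator of actin capping. The nearest of these peaks were 29 bp apart, and the first gga-mir-7455 peak stood 370 bp upstream of the first CARMIL1 peak. gga-mir-12267 had 2 peaks on chromosome 33, the first 822 bp upstream of the NAB2 promoter, and gga-mir-1788 a 1 bp peak 2207 bp upstream of that of FEV, a transcription factor of serotonin neurons.

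In 4 further cases the microRNA peak followed within 1000 bp. The 13 bp peak of gga-mir-12215 on chromosome 1 (194436257 to 194436269) lay 9 bp past the single 5 bp peak of CLNS1A, a chaperone in the assembly of spliceosomal particles. That of gga-mir-1456, 3 bp wide, lay 186 bp past the first peak of LYRM7, which helps to assemble respiratory complex III. gga-mir-1580 lay 654 bp past HID1 and gga-mir-1804, with peaks of 1 and 6 bp, 687 bp past HNRNPDL, an RNA-binding protein gene. Here a start of the small RNA's transcript cannot be told apart from one of the host. The same holds for the peaks upstream of hosts given above and for those farther inside hosts given below. Each peak carries only 1 name.

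The other 12 lay more than 1000 bp past the first host peak. gga-mir-3526 had the widest member peak, 116 bp on chromosome 3 (15685513 to 15685628), 1880 bp past the single 2 bp promoter peak of CST3, which encodes the secreted protease inhibitor cystatin C. Upstream of the gga-mir-3526 peak lay 5 unlabelled peaks within 5000 bp on the same strand, downstream none, and none on the opposite strand. gga-mir-1466 had peaks of 12, 1 and 11 bp on chromosome 24, the first of them 2900 bp past the first THY1 peak. THY1 encodes a surface glycoprotein of neurons, and within 5000 bp of the first gga-mir-1466 peak lay 20 unlabelled own-strand peaks and 5 opposite-strand ones. gga-mir-6542 lay 3435 bp past the promoter of SRF, the serum response factor of muscle genes. gga-mir-1583 lay 3486 bp past XPA, gga-mir-6620 3614 bp past the tight junction gene CGN, gga-mir-1698-2 4472 bp past MTMR4, and gga-mir-1673 6461 bp past SEPTIN5, labelled under its older symbol SEPT5. The farthest were gga-mir-1451, 145690 bp past RNGTT, which encodes the mRNA capping enzyme, gga-mir-218-1 in SLIT2, and gga-mir-1587, 188756 bp past AUTS2.

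**Figure D3:**
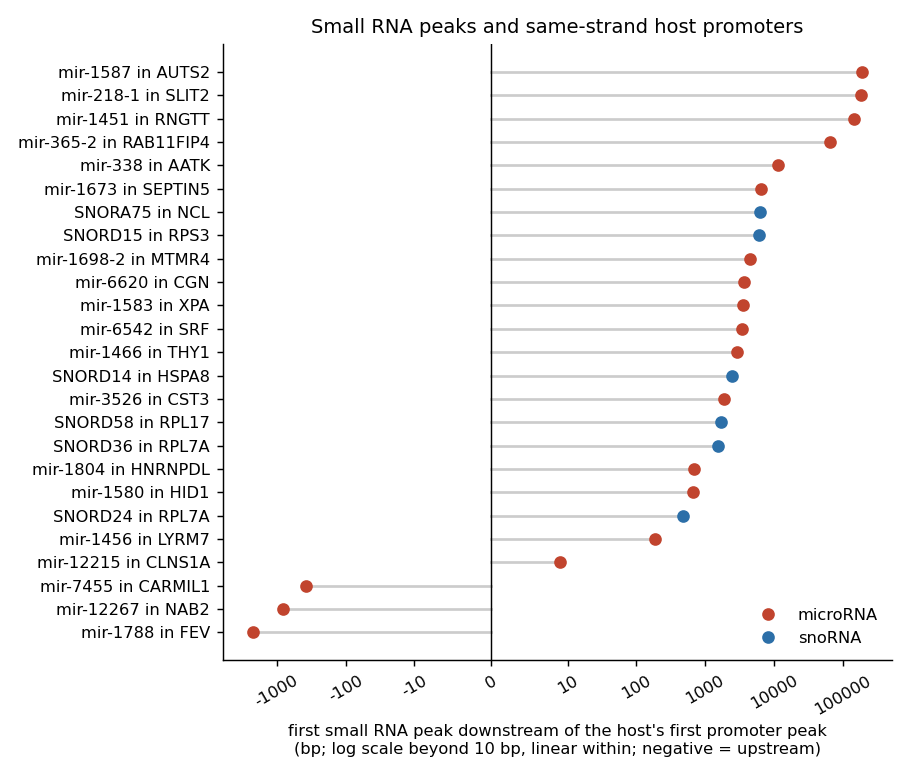
Distance (bp, log scale beyond 10 bp) from the first promoter peak of a same-strand host gene to the first peak of the microRNA (red) or snoRNA (blue). Hosts of microRNAs overlap them in RefSeq, and those of snoRNAs are the genes that host them in human. Of 25 pairs, 3 lie upstream of the host's first peak, and the farthest, gga-mir-1587 in AUTS2, stands 188756 bp downstream.

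In 15 cases the coding host had no promoter label under its RefSeq names, and 7 of these loci had 3 or more peaks. The 15 loci averaged 2.53 peaks (median 2), beside 1.68 in the 19 loci with a labelled same-strand host. The 10723 other promoter loci averaged 2.32 (median 2), which is close to the 15 loci. The strand of the unlabelled hosts is not known, whereas the 19 were chosen as same-strand, so the groups are not matched. gga-mir-1772, in the ubiquitin ligase gene HERC4, had 6 peaks of 3 to 21 bp on chromosome 6 (11170944 to 11171040). gga-mir-1581, in the transcriptional regulator TCF20, had 4 peaks of 7 to 13 bp on chromosome 1 (49276261 to 49276329). gga-mir-1766, in MYO10, a motor of filopodia, had 4 peaks of 4, 8, 22 and 11 bp on chromosome 2 (75620694 to 75620833). gga-mir-12212, in the Wnt co-receptor gene LRP6, had 3 peaks of 8 to 24 bp on chromosome 1 (71781539 to 71781740) with no unlabelled peak within 5000 bp on either strand. gga-mir-6669, in an unnamed RefSeq gene, had 4 peaks of 1 to 32 bp on chromosome Z, 196 bp from the head-to-head promoter of RIC1. Whether these peaks are the missing host promoters was not tested. A host may also carry a label under an Ensembl identifier, which could not be matched. FAM35A, the host of gga-mir-1579, is now called SHLD2 and was labelled under that name 86 bp downstream.

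gga-mir-7474 lay in TTN, the gene of the giant muscle protein titin, which had no label. Its 4 plus-strand peaks of 21, 2, 8 and 14 bp lay on chromosome 7 (15347724 to 15348243). Within 5000 bp of the first of them lay 16 unlabelled peaks upstream and 15 downstream on the same strand, and none on the opposite strand. This was the densest surrounding of any member locus. The next were gga-mir-1466 with 20 own-strand peaks, gga-mir-12291 with 13, SNORA75 with 10, gga-mir-12216 with 9, gga-mir-1583 with 8, gga-mir-12244 and SNORD14 with 7 each, and gga-mir-6542 and gga-mir-12219 with 6 each. gga-mir-12219 overlaps AGRP, the gene of an appetite-raising neuropeptide, whose promoter lay 3036 bp away on the other strand. A second coding gene, LOC100859696, also overlaps gga-mir-12219, and the promoter of an Ensembl-named gene lay 729 bp upstream on the strand of gga-mir-12219.

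On the strand of the member, unlabelled peaks were about as many upstream of it as downstream. Within 5000 bp of the first peak, member loci had on average 1.46 own-strand unlabelled peaks upstream and 1.45 downstream. The 10723 other promoter loci had 0.644 upstream and 1.099 downstream. At least 1 upstream peak was found at 34 of 69 member loci (49.3%, interval 37.8 to 60.8) and at 31.5% of other loci (interval 30.7 to 32.4). At least 1 downstream peak was found at 40.6% of member loci (interval 29.8 to 52.4) and 45.5% of others (interval 44.6 to 46.4). Without gga-mir-7474 the member means were 1.25 upstream and 1.25 downstream, and the share with an upstream peak was 48.5%. On the opposite strand the means were 1.49 in member loci and 1.23 in the others.

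**Figure D4:**
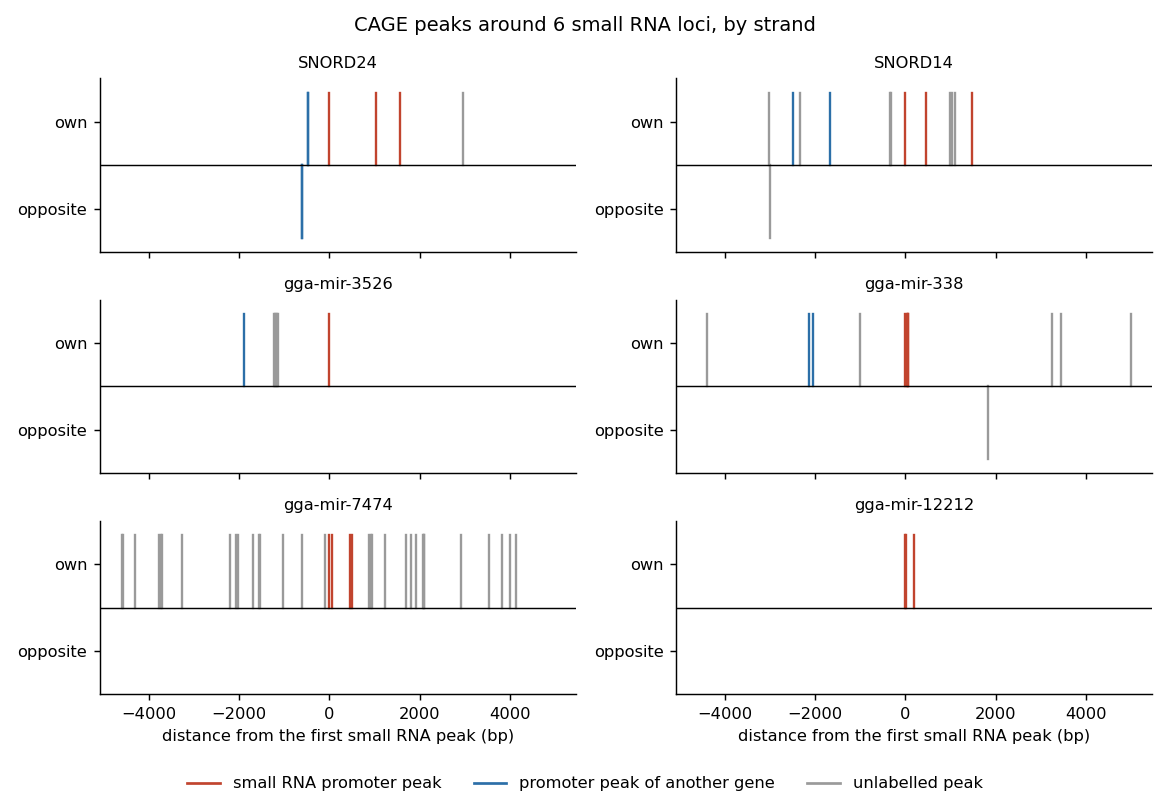
CAGE peaks within 5000 bp of the first peak of 6 member loci, drawn by distance (bp) along the member's strand, with its own strand above the line and the opposite strand below. gga-mir-7474 stands among 31 unlabelled own-strand peaks, gga-mir-12212 has none, and SNORD24 and SNORD14 follow promoter peaks of RPL7A and HSPA8.

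Member loci had a same-strand labelled peak of another gene nearby far more often than other promoter loci did. A labelled peak of another gene lay within 1000 bp on the same strand at 12 of 69 member loci (17.4%, interval 10.2 to 27.98), and at 92 of 10723 other loci (0.858%, interval 0.700 to 1.05). Within 100 bp the counts were 5 of 69 (7.25%) and 25 (0.233%), and within 5000 bp 31 (44.9%) and 719 (6.71%). The 5 closest were gga-mir-12215 with CLNS1A at 9 bp, gga-mir-7455 with CARMIL1 at 29 bp, gga-mir-12283 with SCLY, a selenocysteine lyase gene, at 66 bp, gga-mir-1579 with SHLD2 at 86 bp, and SNORA73 with an Ensembl-named gene at 97 bp. Among the 12 loci, the neighbour was the member's own host for CLNS1A, CARMIL1, LYRM7, HID1, HNRNPDL, NAB2 and SHLD2, and for RPL7A with SNORD24. It was not matched to a host at gga-mir-12283, gga-mir-12219, SNORA73 and 5S rRNA. The part of host overlap in the difference was not tested.

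On the opposite strand the intervals of members and others overlapped. A labelled peak of another gene lay within 1000 bp at 12 of 69 member loci (17.4%, interval 10.2 to 27.98) and at 13.7% of other loci (interval 13.1 to 14.4). It stood head to head, that is upstream and pointing away, at 10 member loci (14.5%, interval 8.07 to 24.7) and at 12.7% of other loci (interval 12.1 to 13.4). The closest such pair was gga-mir-1682 with SREBF1, the regulator of lipid synthesis, at 79 bp on chromosome 14. gga-mir-1682 had 3 peaks of 8, 15 and 2 bp there and overlapped no coding gene in RefSeq. The next were gga-mir-1576 with PPP2R2B, a phosphatase subunit gene that also overlaps it, at 106 bp, gga-mir-6669 with RIC1 at 196 bp, and gga-mir-1579 with an Ensembl-named gene at 208 bp. gga-mir-1804 stood 457 bp from ENOPH1, an enzyme gene of methionine salvage. The nearest opposite-strand pair of all, gga-mir-12244 with TTLL9 at 14 bp, was not in this orientation, nor was gga-mir-6597 with its host CTSZ, a lysosomal protease gene, at 345 bp.

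**Figure D5:**
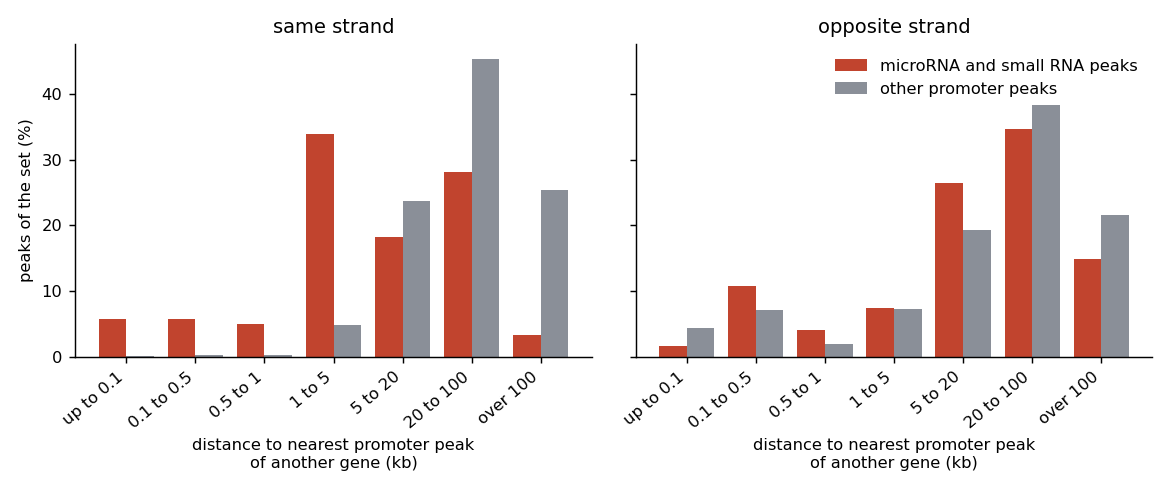
Share of peaks (%) by distance (kb) to the nearest labelled promoter peak of another gene on the same strand (left panel) and the opposite strand (right panel), for 121 microRNA and small RNA peaks (left bars) and 24848 other promoter peaks (right bars). On the same strand 33.9% of the small RNA peaks and 4.78% of the others lay 1 to 5 kb away, and on the opposite strand 7.44% and 7.25%.

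The 10 snoRNA genes with a label had 17 peaks. For 6 of these genes, a neighbouring gene that hosts them in human had a same-strand promoter, which their peaks followed. These pairs were picked with the neighbouring genes known, so their number is not a share of the 10. SNORD24 and SNORD36 guide methylation of ribosomal RNA and lie in introns of the ribosomal protein gene RPL7A in human. On chromosome 17, RPL7A had peaks of 1 and 6 bp. The single SNORD24 peak of 107 bp (7165759 to 7165865) stood 478 bp past the first RPL7A peak by representative positions. The SNORD36 peaks of 6 and 25 bp stood 1514 and 2042 bp past that RPL7A peak. SNORD24 was also 598 bp from the head-to-head promoter of MED22. SNORD14 had peaks of 1, 7 and 11 bp on chromosome 24. They lay 2486 to 3959 bp past the first peak of HSPA8, the constitutive heat shock chaperone gene. That HSPA8 peak was 2 bp wide, and a second one of 163 bp lay nearer, 1674 bp before the first SNORD14 peak. SNORD15 had 1 peak of 10 bp 6037 bp past that of the ribosomal protein gene RPS3, and SNORD58 1 peak of 6 bp 1710 bp past that of RPL17. SNORA75 had 1 peak of 15 bp 6197 bp past the first of 2 peaks of NCL, the nucleolin gene. Within 5000 bp SNORA75 had 6 unlabelled own-strand peaks upstream and 4 downstream.

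No distance to a host promoter was measured for the other 4 snoRNA names. SNORD79 had the most snoRNA peaks, 4 of 3, 12, 11 and 3 bp on chromosome 8 (7796313 to 7796370). In human it lies in the non-coding gene GAS5, which has no label under that name in the list. The nearest same-strand promoter here was that of an Ensembl-named gene 3853 bp upstream. Whether that gene is GAS5 could not be told. SNORA73 had 2 peaks of 1 bp each, 116 bp apart on chromosome 23. The first of them lay 97 bp past the same-strand promoter of an Ensembl-named gene. SNORA62 had 1 peak of 7 bp on chromosome 2, 17477 bp from the promoter of SLC25A38, and SNORD62 1 peak of 13 bp on chromosome 17, 11309 bp from that of POMT1.

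The spliceosomal RNA names were few. Most of their loci had at most 1 unlabelled peak within 5000 bp on their own strand, and the median over the 24848 other promoter peaks was also 1. The name U1, the RNA that recognises 5′ splice sites, was given to 5 loci with 7 peaks. The loci on chromosomes 2 and 5 had 1 peak each, of 19 and 20 bp, and no unlabelled peak within 5000 bp on either strand. The nearest same-strand promoter lay 68827 bp away on chromosome 2 and 249423 bp away on chromosome 5. Chromosome 3 held the other 3 U1 loci. A 1 bp plus-strand peak stood at 104441417, and a minus-strand peak of 2 bp at 104445224 to 104445225, 419 bp from the head-to-head promoter of TMEM214. The third had minus-strand peaks of 1, 12 and 7 bp between 104542439 and 104542745.

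U2, the RNA that pairs with the branch point, had 1 peak of 16 bp on chromosome 1 (58427 to 58442). U4, which holds U6 inactive until the spliceosome is activated, had 3 peaks of 1, 19 and 1 bp on chromosome 15 (9678812 to 9679418), the first of them 1251 bp from the head-to-head promoter of SIRT4. Among the polymerase III genes, the names 7SK and 5S rRNA were each given to a single peak, and U6 to none. Whether the peak is a start of the named RNA was not tested. That of 7SK, which keeps the elongation kinase P-TEFb inactive, was 1 bp wide at 88359537 of chromosome 3, 275 bp from the head-to-head promoter of an Ensembl-named gene and with 7 unlabelled peaks on the opposite strand and none on its own. That of 5S rRNA was 6 bp wide on chromosome 2 (44413351 to 44413356), and the promoter of TMPPE followed 316 bp downstream on the same strand. Copies of these genes that lie elsewhere in the genome are near-identical, and reads of 1 copy can be assigned to another, so the loci are uncertain.

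Most genes of the proteins that make or bind small RNAs carried a promoter label. Of 107 measurable genes in 7 lists, 77 had a label (72.0%), beside the 57.0% of all protein-coding genes with a symbol. With older symbols matched too, the shares were 72.0% and 57.7%. At least 2 promoter peaks were found for 54 of the 107 (50.5%), beside 38.4% of coding genes with a symbol. The lists were chosen with earlier results of these data known, and the shares are descriptions. A gene without a label here or below may carry one under an Ensembl identifier, which could not be matched. A missing label does not show that the gene is not transcribed. In microRNA processing 12 of 18 genes were labelled. AGO3, an Argonaute protein that holds microRNAs, had 4 promoter peaks, and DROSHA and DIS3L2 had 3 each, as did RAN, the GTPase that drives export of microRNA precursors. DGCR8, the partner of DROSHA, DICER1, which cuts the precursor, TARBP2 and LIN28A had none. In the box C/D snoRNA proteins 6 of 8 were labelled, with RUVBL1 at 4 peaks and NUFIP1 and SNU13 at 3, while FBL, the methyltransferase fibrillarin, and NOP56 had none. In the box H/ACA and scaRNA proteins 7 of 9 were labelled, with NAF1 and TGS1 at 3 peaks, and WRAP53 and COIL had none.

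SNAPC5, a subunit of the complex that binds snRNA promoters, had 7 promoter peaks, the most of any gene in these lists. ZNF143, an activator of snRNA genes, had 4, and SNAPC3, INTS1 and INTS8 had 3. In all, 16 of 22 genes of SNAPc, Integrator and their partners had a label (72.7%), and SNAPC4, ICE1, ICE2 and INTS5 were among those without. Spliceosomal snRNP proteins reached 19 of 23 (82.6%), with LSM4 at 5 peaks and LSM6 at 4, while SNRPD2, LSM7, LSM8 and GEMIN4 had none. RNA polymerase III and its factors reached 15 of 22 (68.2%), with POLR3A, the largest subunit, at 4 peaks, and POLR3C, POLR3E, POLR3G and POLR3GL among those without. In the 7SK particle 2 of 5 measurable genes were labelled, LARP7 with 4 peaks and CCNT1 with 2. This was 40%, below the 57.0% of coding genes with a symbol but of 5 genes only. HEXIM1, CDK9 and CCNT2 had none.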

How the data were processed

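The authors made CAGE libraries from 5 µg of total RNA with molecular identifiers, per the labels' protocols. Tools listed in the submitters' processing notes are UMI-tools 1.1.4 and STAR 2.7.9a, and the build is GRCg6a. The name of the deposited list holds the terms DPI and ROBUST, which point to its peak calling and filtering but are not explained there. The settings of these steps and the rule for promoter labels remain unknown. Widths and numbers of peaks per locus rest on that peak calling, and their dependence on it was not tested. Peak positions make up the deposited list, with 2 constant score columns that held 1 in every row and were not used. Depth per library is unknown.

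Peaks were chosen by gene name, starts were turned from 0-based to 1-based, and distances were taken between the representative positions that the list gives inside each peak, whose meaning was read from the values. MicroRNA hosts came from overlap in the RefSeq table of GRCg7b, which gives no strand, so host strand was taken from its labelled peaks. Hosts of snoRNAs were the genes that host them in human. Of 50 microRNA names 46 matched, 45 of them on the same chromosome. The remaining one lies on chromosome 33, which GRCg7b numbers differently. Members, lists and tests were chosen with earlier results of these data known. Genes named are all snoRNA and snRNA members, loci with 3 or more peaks, the widest peaks, the closest pairs, the densest surroundings, members of known families and, per protein list, up to 3 with most peaks and up to 4 without a label, with some ties left out. Other genes were chosen after their values were seen. The same-strand nearest-promoter and window counts recovered 200 of 200 loci planted in simulated data. Opposite-strand promoter distances, the joining of loci, orientation and host matching were not checked in this way. Planned seed and motif results were not run, as no sequence was used here. Python 3.11.15, numpy 2.4.6, pandas 2.3.3, scipy 1.17.1 and matplotlib 3.10.9 were used.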

Additional observations from a re-analysis of the deposited data

How the results depend on the processing

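No paired analysis was possible because the list has no value per library. Of the alternative values, 39 stayed within the interval of the main value or, for counts, within 1.5 times it, and 11 did not. Without promoter peaks of 1 bp the share of 1 bp peaks was 0% by construction, and the U1, U2, U4, 7SK and 5S rRNA peaks numbered 8 instead of 13. With peaks within 100 bp merged, microRNA peaks numbered 58 instead of 91. A same-strand promoter of another gene lay near 16.5% of member peaks within 1000 bp and 50.4% within 5000 bp. The medians of unlabelled peaks around a member peak were 1 on either strand within 5000 bp, 0 and 0 within 1000 bp, and 5 own-strand and 4 opposite-strand within 20000 bp. At least 1 own-strand unlabelled peak lay near 75.2% of member peaks within 5000 bp, 41.3% within 1000 bp and 96.7% within 20000 bp. These changes follow from the wider or narrower windows. Of the other promoter peaks, 0.676% had a same-strand promoter of another gene within 1000 bp. Their medians of unlabelled peaks within 5000 bp were also 1 on either strand. At least 1 own-strand unlabelled peak lay within 5000 bp of 61.6% of them. The values of unlabelled peaks around other promoter peaks in the alternative windows are not given here. Machinery genes with at least 2 promoter peaks made up 50.5%, where 38.4% of coding genes with a symbol had as many. Older symbols left the share of labelled machinery genes at 72.0%, beside 57.7% of coding genes with a symbol. All member peaks lay on assembled chromosomes. Leaving out gga-mir-7474, chosen after seeing the data, moved none of the medians. Peak height and depth per library are unknown, so the strength of any promoter could not be given.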
